A study of Homo sapiens with 4 samples.

Results

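Cadherins are calcium-dependent adhesion proteins of the cell surface, and 10 of their genes were described here out of 62649 genes counted in each library: CDH1, CDH2, CDH3, CDH4, CDH6, CDH11, CDH13, CDH15, CDH19 and CDH24. They were chosen by name, as members of 1 protein family, with earlier results of these data known. They were measured by polyA RNA-seq in A375 cells, an established human melanoma line with an activating mutation in the BRAF kinase. The 2 control libraries came from parental cells grown in RPMI-1640 with fetal bovine serum and antibiotics. The 2 resistant libraries came from A375 cells in the same medium whose exposure to vemurafenib, which blocks that mutant kinase, had been raised weekly from 0.1 to 6.4 µM. Whether the drug was still in the medium at harvest is not given, nor whether the resistant line was 1 clone or a mixed population. The protocol speaks of harvest after drug treatment and of other agents and a DMSO vehicle, without tying any of them to these 4 libraries. The series' design text names EMT-like transitions as a subject of the study, where EMT stands for epithelial-mesenchymal transition.

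Classical cadherins bind their like on the neighbouring cell, and their cytoplasmic tails hold beta-catenin or plakoglobin, alpha-catenin and p120-catenin, which tie the junction to actin. Normal melanocytes hold on to keratinocytes through E-cadherin (CDH1) and P-cadherin (CDH3), and melanomas often carry N-cadherin (CDH2) in their place, a change known as the cadherin switch. The label of the group, classical and type II cadherins, fits 9 of the 10 genes. CDH1, CDH2, CDH3, CDH4 (R-cadherin) and CDH15 (M-cadherin of muscle) are usually placed in type I, and CDH6, CDH11, CDH19 and CDH24 in type II. CDH13 (T-cadherin) is held in the membrane by a lipid anchor, has no catenin-binding tail and belongs to neither type.

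The libraries held 68022689 to 87178097 counts assigned to genes. Control replicate 1 held even values throughout (0 odd). Its counts may therefore stand for fewer reads than equal counts in the other libraries, and halving it was among the alternatives. Defining markers of the melanoma lineage were present in part: the neural crest factor SOX10 had 704 and 1150 CPM (counts scaled to library size, with trimmed mean of M-values factors) in control replicates 1 and 2 and 969 and 864 CPM in resistant replicates 1 and 2, while TYR, the pigment enzyme tyrosinase, stayed at or below 0.208 CPM in all 4. The design text speaks of biological replicates, and separate cultures are not named. The p-values therefore measure the spread among 4 libraries, part of which may be technical. In bulk RNA fewer cells with a transcript and less transcript per cell cannot be told apart.

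No cadherin of the 10 passed the test between resistant and parental cells. All 10 were tested and 0 were called, where 1.09% of all 24961 genes tested were called (adjusted p under 0.05 by Benjamini-Hochberg in edgeR's quasi-likelihood test), 0.577% higher and 0.513% lower. DESeq2 also called 0 of the 10, where over all genes it called 587 higher and 635 lower. It called more genes than edgeR (144 higher and 128 lower). The number of genes it tested is not given here. Its counts, here and in the gene lists below, therefore have no share over all genes beside them and are description alone. At an unadjusted edgeR p under 0.05 there were 2 of the 10, CDH15 and CDH6, against 13.5% of all genes tested. These edgeR shares over all genes are also the background for the edgeR counts in the gene lists below. The 2 groups did not overlap in 6 of the 10 genes, against 44.6% of all genes tested: CDH4, CDH11 and CDH15 were higher in both resistant libraries (22.4% of all genes tested) and CDH2, CDH3 and CDH6 were lower in both (22.2%).

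The 10 genes fell into an abundant set and a scarce set in each library. Levels are compared between genes as RPKM (CPM divided by kilobases of annotated exon), since the annotated exon length ranges from 3748 bases in CDH24 to 13275 in CDH11. The mean RPKM over the 4 libraries was 12.2 for CDH2, 9.29 for CDH19, 7.08 for CDH13 and 6.71 for CDH24. These 4 ranked above 76.9% to 86.1% of the genes tested. The next gene, CDH15, had a mean of 0.159 RPKM, and no library's value in the abundant set came near one of the scarce set. Within the abundant set the ranges of neighbours overlapped: CDH2 exceeded CDH19 in 3 of 4 libraries, CDH19 exceeded CDH13 in 3 of 4, and CDH13 exceeded CDH24 in 2 of 4. The place of CDH13 in this order is uncertain. Of its exon bases 21.4% overlap another gene, where reads were not assigned, so its RPKM may be understated. In the scarce set CDH15 and CDH4 (0.157) overlapped, as did CDH3 (0.0601), CDH1 (0.0486), CDH6 (0.0399) and CDH11 (0.031), each with the next. CDH4 was above CDH3 in all 4 libraries with no overlap.

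**Figure D1:**
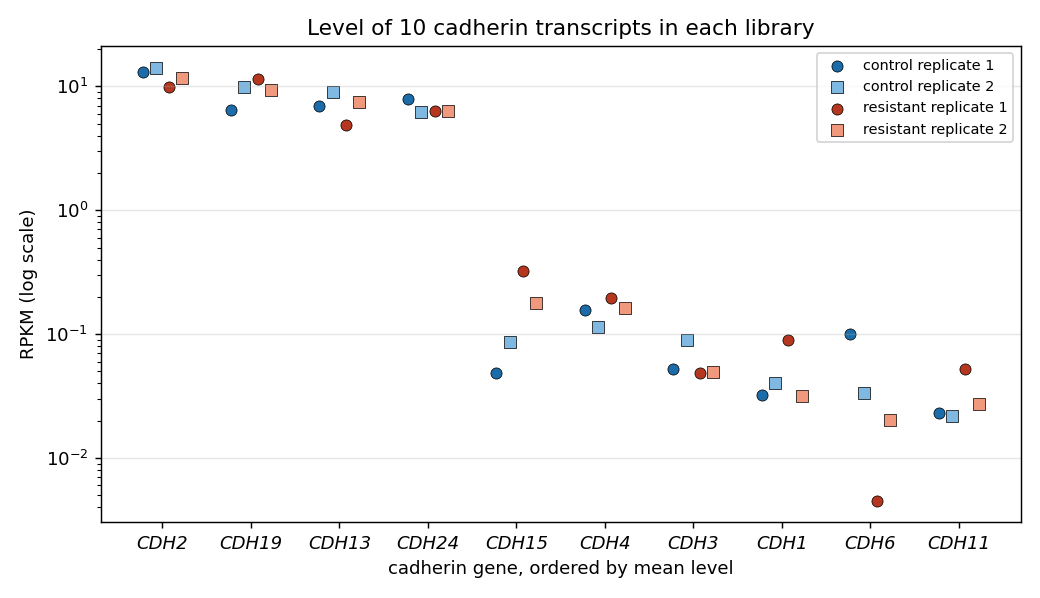
The plot gives the level of each cadherin transcript on a log scale (RPKM, CPM per kilobase of exon) in each of the 4 libraries, with blue for control, red for resistant, circles for replicate 1 and squares for replicate 2. CDH2, CDH19, CDH13 and CDH24 sit between 4.86 and 14.2 RPKM in every library, and the other 6 genes sit at or below 0.324 RPKM.

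Together CDH2, CDH13, CDH19 and CDH24 made up 98.8% and 99% of the summed RPKM of the 10 genes in control replicates 1 and 2, and 97.9% and 98.7% in resistant replicates 1 and 2. The sum itself was 34.9 and 39.7 RPKM in the controls, against 33.2 and 35.3 in the resistant libraries (mean difference -3.01, exact permutation p = 0.667, two-sided). The difference was -5.38 without control replicate 1, -0.633 without control replicate 2 and -1.96 without resistant replicate 1. With 2 libraries against 2 such a test cannot go below 0.33. The pool thus had the same 4 leading genes in each of the 4 libraries.

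CDH2, the gene of N-cadherin (ENSG00000170558.10, GRCh38 chromosome 18, 27932879 to 28177946, minus strand), was the most abundant of the 10 by its mean. It had 113 and 122 CPM in control replicates 1 and 2 and 84.4 and 100 CPM in resistant replicates 1 and 2. Both resistant libraries lay below both controls. The group means were 117 ± 6.47 and 92.4 ± 11.3 CPM (SD, n = 2 per group), -0.34 ± 0.17 on the log2 scale (SE, edgeR adjusted p = 0.453). The 95% interval ran from 0.599-fold to 1.04-fold. Leaving out single libraries kept the log2 fold change between -0.47 and -0.21. N-cadherin transcript was thus high in both parental libraries as well as in both resistant ones.

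CDH19 (ENSG00000071991.9, GRCh38 chromosome 18, 66501083 to 66604138, minus strand) encodes a type II cadherin known from Schwann cell precursors and other neural crest derivatives. It had 44.7 and 67.4 CPM in control replicates 1 and 2, and 78.7 and 64.2 CPM in resistant replicates 1 and 2. The groups overlapped, with control replicate 2 between the resistant libraries and control replicate 1 the lowest. The means were 56.1 ± 16.1 and 71.5 ± 10.3 CPM (SD, n = 2 per group; log2 0.35 ± 0.23, edgeR adjusted p = 0.586), with a 95% interval of 0.881-fold to 1.84-fold. The log2 fold change was 0.68 without control replicate 2 (adjusted p = 0.0908) and 0.08 without control replicate 1 (0.998). SOX10, a factor of the same lineage, was also lowest in control replicate 1, as given above. The lineage factors went both ways there, since MITF (42.2, 22.8, 12.3 and 23.4 CPM in the order of libraries above) and TFAP2A (39.4, 25.8, 17.9 and 24.5 CPM) were highest in control replicate 1. The part of these factors in the CDH19 values was not tested.

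The promoter table from RefSeq (GRCh38.p14) matched 3 of the 10 genes by symbol, CDH2, CDH4 and CDH19; CDH1, CDH3, CDH6, CDH11, CDH13, CDH15 and CDH24 were not matched. Stretches before RefSeq starts of CDH2 (chr18:28177131-28177380, minus strand, 250 bases) and CDH19 (chr18:66604139-66604340, minus strand, 202 bases) are shown because these are the leading cadherin transcripts of the libraries. RefSeq and GENCODE starts differ: the CDH2 stretch lies inside the longer gene model of the count files, between 2 of its exons, and the CDH19 stretch ends where the outermost exon of that gene model begins. Capitals mark a SOX core, ACAAAG or its reverse complement CTTTGT. The other motif searched was the E-box CACCTG or CAGGTG, which Snail and ZEB proteins are known to bind; the 2 motifs share no overlap here.
CDH2: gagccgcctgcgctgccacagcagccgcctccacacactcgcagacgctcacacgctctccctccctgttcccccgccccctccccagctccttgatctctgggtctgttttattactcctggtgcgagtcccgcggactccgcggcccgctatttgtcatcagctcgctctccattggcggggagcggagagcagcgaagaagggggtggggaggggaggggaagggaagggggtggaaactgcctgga
CDH19: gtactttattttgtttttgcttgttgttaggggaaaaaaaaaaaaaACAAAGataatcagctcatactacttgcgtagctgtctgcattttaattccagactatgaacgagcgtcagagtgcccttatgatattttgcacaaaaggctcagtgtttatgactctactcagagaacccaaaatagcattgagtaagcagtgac

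Over the 250 bases before the RefSeq start, the CDH2 window shown had 17 CG pairs and 66% G and C. A second RefSeq start of CDH2 (window chr18:28036642-28036891) had 4 CG pairs and 42%. The CDH19 window, of which 202 bases are printed, had 4 CG pairs and 38%, where the median over 35116 such windows was 11 CG pairs. CDH19 held the SOX core 1 time and both CDH2 windows 0 times; 13.7% of all windows held it. None of these CDH2 and CDH19 windows held the E-box, which 17.5% of all windows held. Of the CDH4 windows, not shown, chr20:61499171-61499420 held the E-box 1 time and chr20:61599511-61599760 held it 0 times. Such matches describe the letters of these windows alone.

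CDH13, the gene of T-cadherin (ENSG00000140945.17, GRCh38 chromosome 16, 82626965 to 83800640), had 77.3 and 99.5 CPM in control replicates 1 and 2 and 53.6 and 81.8 CPM in resistant replicates 1 and 2. The groups overlapped, and resistant replicate 1 was the lowest library. The means were 88.4 ± 15.7 and 67.7 ± 19.9 CPM (SD, n = 2 per group; log2 -0.38 ± 0.24, edgeR adjusted p = 0.562), and the 95% interval ran from 0.522-fold to 1.13-fold. The log2 fold change ranged from -0.72 without resistant replicate 2 to -0.10 without resistant replicate 1. Of its exon bases, 21.4% overlap the antisense gene CDH13-AS2, and counting took no account of strand, so reads there could not be assigned to either gene. Its RPKM divides by all exon bases, so this level and its share of the summed RPKM may be understated.

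CDH24 (ENSG00000139880.21, GRCh38 chromosome 14, 23047062 to 23057538, minus strand) encodes a type II cadherin. It had 29.5 and 23.4 CPM in control replicates 1 and 2 and 23.8 and 23.9 CPM in resistant replicates 1 and 2. Control replicate 1 was the highest, and the other libraries lay close together. On the log2 scale the difference was -0.15 ± 0.19 (SE, edgeR adjusted p = 0.821) with a 95% interval of 0.663-fold to 1.23-fold, and it was 0.03 without control replicate 1.

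Within the pool CDH2 took a smaller share and CDH19 a larger share in both resistant libraries, in a design too small for the test to pass. CDH2 made up 37.6% and 35.8% of the summed RPKM in the controls, against 29.6% and 33.1% in the resistant libraries, and CDH19 made up 18.7% and 24.8% against 34.5% and 26.5%. Neither share overlapped between the groups (difference -5.31 and 8.78 percentage points, exact permutation p = 0.33 for each, two-sided, the smallest the design allows). Leaving out resistant replicate 1 brought the CDH19 difference to 4.75, leaving out control replicate 1 to 5.72, and the CDH2 difference was -3.55 without resistant replicate 1. These 2 shares are parts of 1 sum, so they are not independent. The ratio of CDH2 to CDH19 in RPKM was 2.01 and 1.44 in the controls, against 0.857 and 1.25 in the resistant libraries, so CDH19 exceeded CDH2 in resistant replicate 1 alone. The 4 differences tested in this way (the sum, both shares and the ratio of CDH2 to CDH1 below) all had a Benjamini-Hochberg adjusted p of 0.667.

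**Figure D2:**
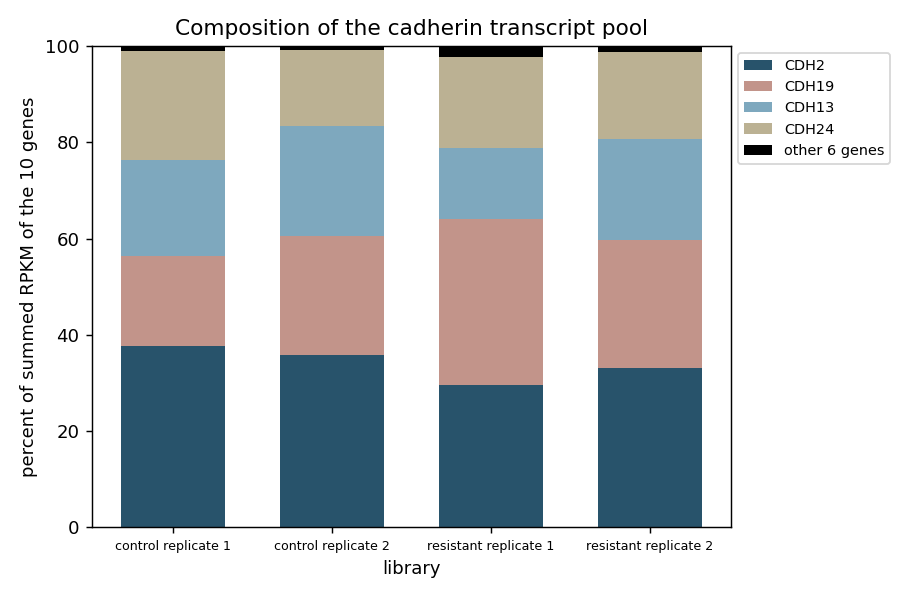
Stacked bars give each gene's percent of the summed RPKM of the 10 cadherin genes, 1 bar per library, with the 6 scarce genes pooled in black. CDH2 takes 37.6% and 35.8% of the control bars and 29.6% and 33.1% of the resistant bars, and the black segment is 1.18%, 0.977%, 2.15% and 1.33% from left to right.

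E-cadherin and P-cadherin were near the limit of detection in parental as in resistant cells. CDH1 (ENSG00000039068.20, GRCh38 chromosome 16, 68737292 to 68835537) had 14 and 21 counts in control replicates 1 and 2 and 39 and 16 in resistant replicates 1 and 2, or 0.196, 0.242, 0.549 and 0.194 CPM. Resistant replicate 1 was the high library, and resistant replicate 2 was level with the controls. On the log2 scale this was 0.74 ± 0.67 (SE, edgeR adjusted p = 0.716), with a wide 95% interval of 0.567-fold to 4.95-fold, and it was -0.17 without resistant replicate 1. Its neighbour CDH3 (ENSG00000062038.15, chromosome 16, 68636189 to 68727468) had 24 and 50 counts in the controls, against 22 and 26 in the resistant libraries. Control replicate 2 was the high library there (log2 -0.55 ± 0.53, edgeR adjusted p = 0.734), and without control replicate 2 the log2 fold change was -0.10. Antisense genes overlap 5.7% of the exon bases of CDH1 and 8.4% of those of CDH3. Reads there were not assigned, so both levels may be understated.

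On the RPKM scale CDH2 exceeded CDH1 407 and 355 times in control replicates 1 and 2 and 109 and 367 times in resistant replicates 1 and 2. The log2 ratio averaged 8.57 ± 0.139 for control and 7.64 ± 1.24 for resistant libraries (SD, n = 2 per group; difference -0.928, exact permutation p = 0.667, two-sided). Without resistant replicate 1 the difference was -0.0507. CDH2 thus far exceeded CDH1 on both sides of the comparison, and 2 libraries a group are too few for this test to pass. Epithelial markers were mixed in level. EPCAM, an epithelial surface marker, was at 0.281 to 0.399 CPM in the 4 libraries. KRT1, KRT5, KRT14, TP63 and CLDN7 were also scarce. CLDN4 (31.2 to 39.0 CPM), KRT10 (47.5 to 89.1 CPM), KRT8 (108 to 374 CPM) and KRT18 (195 to 503 CPM) were abundant.

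CDH15 (ENSG00000129910.8, GRCh38 chromosome 16, 89171748 to 89195492), the M-cadherin gene, had the lowest p of the 10. It had 16 and 35 counts in control replicates 1 and 2 and 107 and 68 in resistant replicates 1 and 2, or 0.224, 0.404, 1.51 and 0.822 CPM. Both resistant libraries were above both controls. The means were 0.314 ± 0.128 and 1.16 ± 0.483 CPM (SD, n = 2 per group). This was 1.87 ± 0.51 on the log2 scale (SE, edgeR adjusted p = 0.148), with a 95% interval of 1.61-fold to 8.33-fold that takes no account of the number of genes tested. With no filter on low counts CDH15 passed (edgeR adjusted p = 0.00584). That setting called 905 genes higher and 961 lower over all genes, against 144 and 128 in the main fit. The log2 fold change of CDH15 was 2.37 without control replicate 2 and 1.39 without resistant replicate 1. DESeq2 gave an adjusted p of 0.0586. Of 5 skeletal muscle markers 1 was abundant enough to test, none was called by either tool, with 0 at an unadjusted edgeR p under 0.05. Their summed level was 0.587 and 0.658 CPM in the controls, against 0.521 and 0.726 CPM in the resistant libraries. The muscle factors MYOD1, MYF5 and MYOG had 0 to 6 counts in any library, and MYF5 was at 0 in all but control replicate 2.

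CDH6 (ENSG00000113361.13, GRCh38 chromosome 5, 31193686 to 31329146), the K-cadherin gene of kidney and of migrating neural crest cells, had 90 and 36 counts in control replicates 1 and 2 and 4 and 21 in resistant replicates 1 and 2. These correspond to 1.26, 0.416, 0.0563 and 0.254 CPM, where a count of 3 is 0.0346 to 0.0422 CPM. Both resistant libraries were below both controls, and replicates within each group differed widely. The means were 0.837 ± 0.595 and 0.155 ± 0.140 CPM (SD, n = 2 per group). This was -2.39 ± 0.80 on the log2 scale (SE, edgeR adjusted p = 0.237), with a 95% interval of 0.0529-fold to 0.691-fold, likewise for this gene alone. With no filter on low counts CDH6 passed (edgeR adjusted p = 0.00183), in a setting that called 905 genes higher and 961 lower over all genes. The log2 fold change of CDH6 was -2.97 without control replicate 2 and -1.38 without control replicate 1. A same-strand pseudogene, DUX4L51, covers 8.9% of its exon bases, and reads there were not assigned.

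CDH4, the R-cadherin gene of retina and brain (ENSG00000179242.16, GRCh38 chromosome 20, 61252261 to 61940617), had 1.17 and 0.866 CPM in control replicates 1 and 2 and 1.46 and 1.22 CPM in resistant replicates 1 and 2. Both resistant libraries were the higher by a small margin (log2 0.40 ± 0.36, SE, edgeR adjusted p = 0.719). CDH11, a type II cadherin gene known from mesenchymal cells and osteoblasts (ENSG00000140937.14, chromosome 16, 64943753 to 65126112), had 22 and 25 counts in the controls, against 49 and 30 in the resistant libraries (log2 0.81 ± 0.54, edgeR adjusted p = 0.589). Its fold change rested on resistant replicate 1, without which it was 0.29 on the log2 scale. Of 8 fibroblast markers 7 were tested, with none called by edgeR and LUM lower by DESeq2 (adjusted p = 1.69e-04, edgeR 0.0569). An unadjusted edgeR p under 0.05 was found for 3 of these markers, against 13.5% of all genes tested. Their median log2 fold change was -0.83, against 0.01 over all genes tested, and their summed level was 16.3, 12.5, 13.4 and 12.0 CPM in the order of libraries above. Their part in the CDH6 and CDH11 values was not tested.

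**Figure D3:**
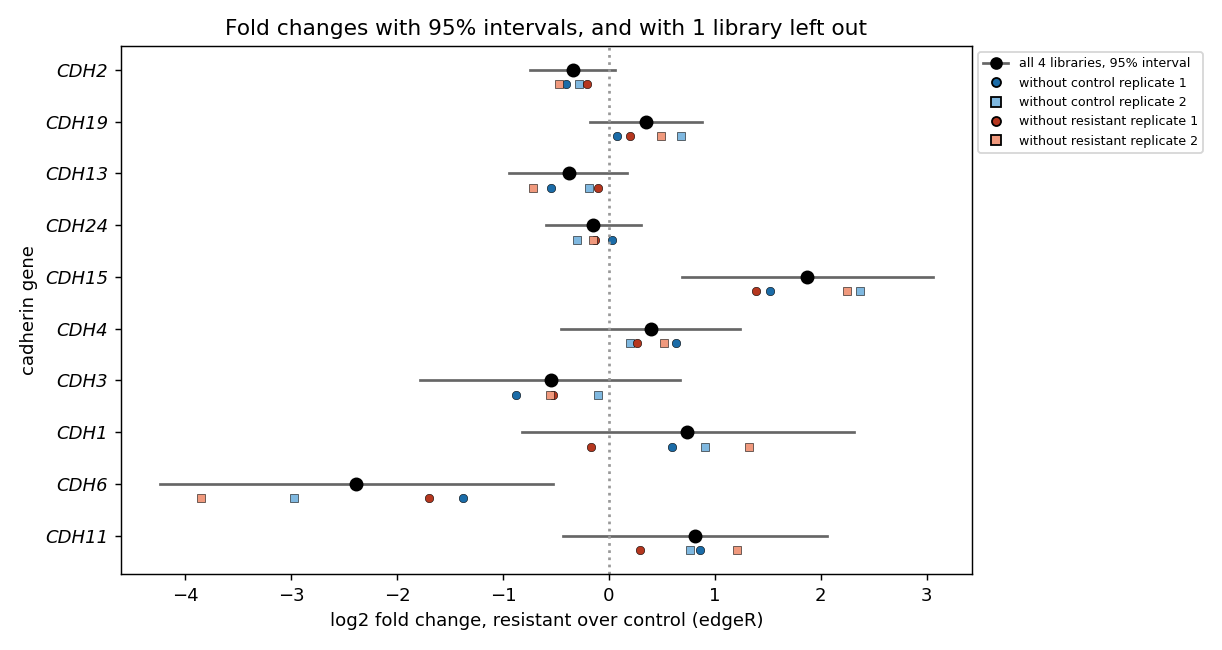
Black points and lines give each cadherin's log2 fold change, resistant over control, with its 95% interval from edgeR, and the small symbols under each line give the value with 1 library left out. The abundant genes CDH2, CDH19, CDH13 and CDH24 lie within 0.38 of zero with short intervals, and CDH15 (1.87) and CDH6 (-2.39) alone have intervals that leave out zero, before any adjustment for the number of genes tested.

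The cadherins on chromosome 16 shared no common direction. CDH1, CDH3, CDH11, CDH13 and CDH15 lie on chromosome 16, and their log2 fold changes were 0.74, -0.55, 0.81, -0.38 and 1.87. Tested genes starting within 5 Mb of each of the 10 cadherins had median log2 fold changes from -0.10 around CDH2 and CDH24 to 0.15 around CDH13 and CDH15. Around CDH6, 47 neighbours had a median of 0.01, and around CDH15, 123 had a median of 0.15. Of 101 neighbours of CDH13, 3 were called higher and 0 lower by edgeR. Around CDH15, 1 was called higher and 1 lower, and around CDH6 and CDH24 1 lower each. The other windows held no calls, where 0.577% of all genes tested were called higher and 0.513% lower. The part of position in the cadherin values was not tested.

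Of 9 other type I and type II cadherin genes, 6 were tested and none was called by edgeR or DESeq2, with 0 at an unadjusted edgeR p under 0.05 (median log2 0.04). CDH12, singled out after its values were seen, was the 1 gene of these with more than 2 CPM in any library. It had 18.0 and 17.7 CPM in the controls, against 16.0 and 19.6 CPM in the resistant libraries (log2 0.00 in size, edgeR adjusted p = 0.995; 95% interval 0.725-fold to 1.37-fold). Its RPKM of 2.83 to 3.47 put it between the abundant and the scarce cadherins. CDH5, the cadherin gene of endothelium, had 0.391, 0.266, 0.155 and 0.0484 CPM in the order of libraries above (edgeR adjusted p = 0.402). CDH10 had a log2 fold change of 0.45 and CDH18 one of -0.53, with edgeR adjusted p-values of 0.737 and 0.835.

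Among the catenins that bind cadherin tails, CTNNB1 and CTNNA1 were abundant in all 4 libraries, and CTNNA2 and CTNND2 were scarce in the controls. Of 11 catenin and tail partner genes, all were tested and none was called by edgeR. An unadjusted p under 0.05 was found for 3, against 13.5% of all genes tested, and DESeq2 called 1, CTNND2, higher (list median log2 -0.06). CTNNB1, the gene of beta-catenin, had 365 and 291 CPM in control replicates 1 and 2 and 222 and 208 CPM in resistant replicates 1 and 2. Both resistant libraries lay below both controls (log2 -0.61 ± 0.18, SE, edgeR adjusted p = 0.188), and the gene passed without control replicate 2 (log2 -0.76, adjusted p = 0.0308) but not without control replicate 1 (-0.44, 0.551), resistant replicate 1 (-0.65, 0.473) or resistant replicate 2 (-0.56, 0.607). JUP, the gene of plakoglobin, which takes the same place on the tail, had 25.8 and 27.7 CPM against 31.3 and 42.1 CPM (log2 0.46, edgeR adjusted p = 0.381). CTNNA1, the gene of alpha-E-catenin, had 402 and 379 CPM against 357 and 359 CPM (adjusted p = 0.828), and CTNND1, the gene of p120-catenin, had 18.9 and 17.2 against 17.9 and 16.9 CPM (adjusted p = 0.947). CTNND2, the gene of the neural delta-catenin, had 0.391 and 0.924 CPM in the controls, against 3.19 and 2.81 CPM in the resistant libraries (log2 2.18 ± 0.45, SE, edgeR adjusted p = 0.0726, DESeq2 adjusted p = 2.54e-04). It passed edgeR without control replicate 1 (adjusted p = 0.0183), without control replicate 2 (a lower adjusted p, log2 2.94) and with no low-count filter (1.23e-05), but not without resistant replicate 1 (0.137) or resistant replicate 2 (0.233). CTNNA2, the neural alpha-catenin gene, had 0.363 and 0.196 against 0.647 and 0.738 CPM (edgeR adjusted p = 0.309).

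Of the transcription factors tied to the cadherin switch, SNAI1, ZEB1, ZEB2 and TWIST1 were all above 13 CPM in each parental library. The list of 14 holds repressors of E-cadherin and also factors that sustain it (GRHL2, OVOL1 and OVOL2). Of the 14 genes 13 were tested, none was called by edgeR, 2 had an unadjusted p under 0.05 and DESeq2 called 1, PRRX1, higher (list median log2 0.20, against 0.01 over all genes tested). SNAI1, the gene of Snail, had 38.7 and 34.1 CPM in control replicates 1 and 2 and 54.9 and 57.3 CPM in resistant replicates 1 and 2 (log2 0.63 ± 0.17, SE, edgeR adjusted p = 0.144). With no low-count filter SNAI1 passed (edgeR adjusted p = 0.0484), and with DESeq2 it did not (adjusted p = 0.0655). ZEB1 had 28.7 and 33.3 against 43.8 and 34.4 CPM (adjusted p = 0.528), and ZEB2 had 13.8 and 13.2 against 15.7 and 19.5 CPM (adjusted p = 0.486). In the list 5 genes tested were higher in both resistant libraries (SNAI1, ZEB1, ZEB2, TCF3 and PRRX1), against 22.4% of all genes tested, and 2 were lower in both (TWIST1 and FOXC2), against 22.2%. TWIST1 had 23.6 and 20.3 against 13.5 and 17.7 CPM (edgeR adjusted p = 0.381). SNAI2, the gene of Slug, was scarce at 0.391 to 0.563 CPM (adjusted p = 0.935). PRRX1, a homeobox factor of mesenchyme, had 4.25 and 7.06 CPM in the controls, against 12.8 and 16.5 CPM in the resistant libraries (log2 1.37 ± 0.30, SE, edgeR adjusted p = 0.0837, DESeq2 adjusted p = 3.96e-04). It passed edgeR without control replicate 1 (adjusted p = 0.0436), without control replicate 2 (0.00163) and with no low-count filter (3.02e-05), but not without resistant replicate 1 (0.0952) or resistant replicate 2 (0.386).

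**Figure D4:**
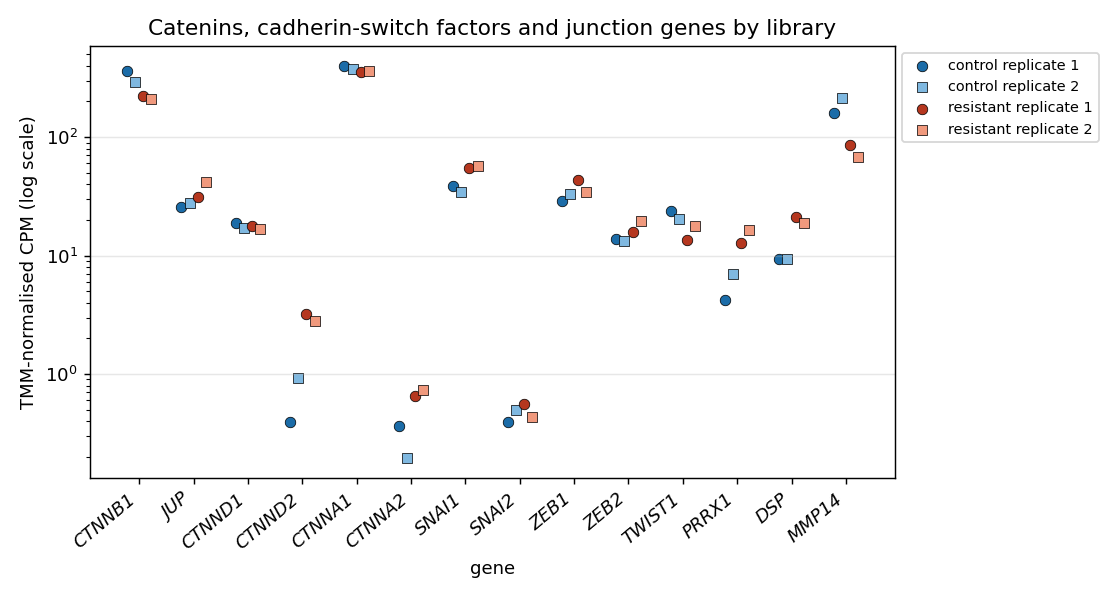
Points give TMM-normalised CPM on a log scale in the 4 libraries for catenin genes, factors of the cadherin switch, DSP and MMP14, with blue for control and red for resistant; CPM is not corrected for length, so heights compare libraries within a gene. CTNNB1 is lower in both resistant libraries (222 and 208 against 365 and 291 CPM) and SNAI1 is higher in both (54.9 and 57.3 against 38.7 and 34.1), neither past the edgeR threshold, while MMP14 fell.

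Among 13 genes of cadherin cleavage and turnover, 1 fell and none rose by edgeR, and 4 had an unadjusted p under 0.05, against 13.5% of all genes tested. DESeq2 called 1 higher, PCSK6 (DESeq2 adjusted p = 0.00485), and 1 lower, MMP14 (1.23e-05). MMP14, the gene of a membrane-anchored matrix metalloprotease, fell from 161 and 215 CPM in control replicates 1 and 2 to resistant values of 85.3 and 68.0 CPM (log2 -1.29 ± 0.21, SE, edgeR adjusted p = 0.0415; 0.225 without resistant replicate 2). PCSK6, which encodes a proprotein convertase, had 1.54 and 1.69 against 3.69 and 4.45 CPM (edgeR adjusted p = 0.0863). With no low-count filter PCSK6 passed (edgeR adjusted p = 0.00785). NCSTN, a gamma-secretase subunit gene, had 91.8 and 110 against 155 and 143 CPM (edgeR adjusted p = 0.195). MDM2, a ubiquitin ligase gene, had 79.5 and 71.1 against 107 and 95.8 CPM (0.311).

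In the neighbouring junctions, 7 of 11 desmosomal genes were tested and none was called by edgeR, with 1 at an unadjusted p under 0.05 and 1, DSP, called higher by DESeq2 (list median log2 -0.36). DSP, the gene of the plaque protein desmoplakin, had 9.39 and 9.28 CPM in control replicates 1 and 2 and 21.0 and 18.9 CPM in resistant replicates 1 and 2. Replicates were close and the groups well apart (log2 1.09 ± 0.20, SE, edgeR adjusted p = 0.0521, DESeq2 adjusted p = 2.68e-04). It passed edgeR with control replicate 1 halved (adjusted p = 0.0444), with counts as fragments (0.0429), with RLE scaling (0.0494), with no low-count filter (5.45e-04), without control replicate 1 (0.0203) and without control replicate 2 (0.0177). It did not pass with library totals alone (0.0534), without resistant replicate 1 (0.209) or without resistant replicate 2 (0.203). PKP2, the plakophilin-2 gene, had 54.9 and 35.2 against 26.2 and 39.0 CPM (edgeR adjusted p = 0.533), and DSC2, a desmocollin gene, 3.66 and 3.70 against 3.11 and 2.33 CPM (0.593). All 4 nectin genes were tested and none was called by edgeR or DESeq2, with 0 at an unadjusted p under 0.05. NECTIN1 had a log2 fold change of 0.15, NECTIN3 one of -0.26 and NECTIN4 one of -0.49, with edgeR adjusted p-values of 0.799, 0.677 and 0.726.

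Markers of other cell types were counted beside the cadherins. Of 9 epithelial and keratinocyte markers tested, KRT14 fell, from 1.62 and 2.08 CPM in the controls to 0.309 and 0.314 CPM in the resistant libraries (edgeR adjusted p = 0.0355; without resistant replicate 1 it was 0.0789, without resistant replicate 2 0.186), and the list median log2 fold change was 0.05. That list's summed level, 959, 531, 401 and 607 CPM in the order of libraries above, came mainly from KRT8 (374, 146, 108 and 149 CPM) and KRT18 (503, 289, 195 and 333 CPM), neither called by edgeR, and its part in the CDH1 and CDH3 values was not tested. TP63 was at 0 in control replicate 1, and KRT1 in control replicate 1 and resistant replicate 2. None of the 12 melanoma lineage genes was called by either tool, with 2 at an unadjusted edgeR p under 0.05 (median log2 -0.08, summed level 1130, 1690, 1480 and 1350 CPM). None of 6 endothelial genes was called by edgeR, and 2 had an unadjusted p under 0.05, against 13.5% of all genes tested. DESeq2 called 1 of the 6 higher (median -0.36, summed level 22.3, 24.1, 49.1 and 27.4 CPM). This sum came mainly from KDR (16.0, 18.9, 44.3 and 23.6 CPM, edgeR adjusted p = 0.196), which was highest in resistant replicate 1. CDH5 stands both in this list and among the other type I and type II cadherins.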

How the data were processed

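Gene counts (68022689 to 87178097 a library) were analysed for 4 polyA, strand-specific, paired-end libraries. Raw counts per gene were deposited by the authors, 1 file per library; per the file headers they came from featureCounts 2.0.0 run on duplicate-marked alignments with GENCODE release 42 and no other options. By that program's defaults strand is ignored, mates are counted singly and reads in several genes are dropped. STAR, DESeq2 and GRCh38 are named in the submitters' processing notes. Of 62649 gene identifiers, 62625 matched a symbol.

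After edgeR's filterByExpr 24961 genes remained. With TMM scaling, a quasi-likelihood model holding group alone was fitted, and two-sided p-values were adjusted over all genes (R 4.3.3, edgeR 4.0.16, DESeq2 1.42.0 as an alternative). The biological coefficient of variation was 25.5%. Each SE divides the absolute log2 fold change by the square root of F, and 95% intervals use a t distribution with the residual (2) and prior (5.69) degrees of freedom. RPKM divide CPM by all annotated exon bases. Scripts were checked on simulated data.

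The members and gene lists were chosen with earlier results of these data known. The text names all 10 members, each list's called genes, its 3 lowest p-values and 8 genes by name. CDH12 and single markers (SOX10, MITF, TFAP2A, TYR, EPCAM, KRT1, KRT5, KRT8, KRT10, KRT14, KRT18, TP63, CLDN4, CLDN7, LUM, KDR, MYOD1, MYF5, MYOG) stand outside that rule. One marker list is not reported here. Single values were compared by exact permutation over libraries. Alternatives were other scalings, filters, DESeq2, halving control replicate 1, leaving out each library and a replicate block; counting fragments was added after seeing the data. A deposited table of fold changes was not used. The floor of 3 counts covers counting error only.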

Additional observations from a re-analysis of the deposited data

How the results depend on the processing

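Over all alternatives, 108 of 114 values of the 10 cadherins kept their direction and their side of the threshold. The 4 that newly passed were CDH15 (log2 1.89 with no low-count filter, 2.37 without control replicate 2) and CDH6 (-2.36 and -2.97). The 2 that changed sign were CDH24 (0.03 without control replicate 1) and CDH1 (-0.17 without resistant replicate 1). With 1 library left out, CDH15 ranged from 1.39 to 2.37, CDH6 from -3.85 to -1.38, CDH24 from -0.30 to 0.03 and CDH1 from -0.17 to 1.32. The least abundant cadherins could not be tested at a minimum of 1 CPM in 2 libraries (5 of 10 tested, none called), and 9 of 10 were tested as fragments, none called.

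Over all genes, 144 were called higher and 128 lower. The counts were 905 and 961 with no low-count filter and 587 and 635 with DESeq2, and with 1 library left out they ranged from 7 to 1146 higher and from 9 to 1020 lower, with the lone library of a group assumed to vary like the other group, lowest without resistant replicate 2 and highest without control replicate 2; the cause was not tested. The replicate 1 minus replicate 2 deviations of the control and resistant libraries had a correlation of 0.00 across 10089 genes. This value cannot settle whether the replicate numbers pair the libraries, since it does not show how cultures or libraries were arranged. With a replicate block 33 genes were called higher and 31 lower, with no cadherin of the 10 among them. Under the block MMP14 (edgeR adjusted p = 0.0945), CDHR1 (0.109), PCDH10 (0.0743) and KRT14 (0.0912) were not called.

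Genes with changes near zero changed sign: CDH12 had 0.01 with library totals alone, 0.02 with no filter, 0.01 with DESeq2 and -0.16 to 0.14 with 1 library left out, and SOX10 had 0.01, 0.00, 0.03 with the replicate block and -0.32 to 0.38. With 1 library left out NECTIN4 reached 0.01 from -0.87, CTNND1 0.02 from -0.12 and SNAI2 -0.02 from 0.35. The difference in the summed level was -31.8 CPM with no length correction, a change of unit, against -3.01 RPKM. Mates were counted singly, so counts of the 6 scarce cadherins stand for fewer fragments, and depth limits what can be said of them.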

Other observations

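Among 32 other members of the cadherin superfamily (protocadherins, FAT, Dachsous, CELSR, calsyntenin and cadherin-related genes), 28 were tested. By edgeR 1 rose and 1 fell, where 1.09% of all genes tested were called. An unadjusted p under 0.05 was found for 8, against 13.5% of all genes tested. DESeq2 called 1 higher and 3 lower, against 587 and 635 over all genes. CDHR1, a cadherin-related gene of photoreceptors, rose: the controls had 0.112 and 0.185 CPM, the resistant libraries 1.08 and 1.00 CPM (log2 2.79 ± 0.49, SE, edgeR adjusted p = 0.0482). Its call was lost without resistant replicate 1 (adjusted p = 0.125), without resistant replicate 2 (0.204) and with library totals alone (0.0507). PCDH10, a protocadherin gene of the nervous system, fell from 40.4 and 29.4 CPM to 14.7 and 13.9 CPM (log2 -1.29 ± 0.21, SE, edgeR adjusted p = 0.0432). Its call was lost without resistant replicate 1 (adjusted p = 0.0906) and without resistant replicate 2 (0.217).

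The next genes by p did not pass edgeR in the main fit. PCDH7 had 6.76 and 3.37 CPM in the controls and 2.32 and 1.55 CPM in the resistant libraries (edgeR adjusted p = 0.173, DESeq2 adjusted p = 0.0173). CLSTN2, a calsyntenin gene, had 60 and 26 counts against 5 and 3 (edgeR adjusted p = 0.102, DESeq2 adjusted p = 0.0221). Both passed edgeR without control replicate 2 (adjusted p = 0.00425 and 0.00438). Without control replicate 1 PCDH7 had log2 -0.80 (adjusted p = 0.457) and CLSTN2 -2.48 (0.380), and without resistant replicate 2 the adjusted p-values were 0.617 and 0.433. CELSR3, a planar polarity gene, had 95.5 and 120 against 75.2 and 59.2 CPM (edgeR adjusted p = 0.174). Its log2 fold change was -0.83 without control replicate 1 and -0.50 without control replicate 2. With no low-count filter CELSR3 (edgeR adjusted p = 0.0338), PCDH7 (0.00408) and CLSTN2 (2.69e-04) passed, in a setting that called 905 genes higher and 961 lower.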
